A study of Mus musculus with 16 samples.

Results

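The small heat shock protein genes Hspb1, Hspb2, Hspb6, Hspb7, Hspb8 and Cryab and the co-chaperone gene Bag3 were followed across 4 mouse mammary tumour cell lines. All probes annotated to these 7 genes were taken, 9 of the 45281 probes on the array, and the genes were chosen by the measured d16HER2 against WT HER2 difference of Hspb8, with its relatives and its partner Bag3. Of the 9 probes, 7 passed the detection filter, which asked for a detection p-value under 0.05 on at least 4 of the 16 arrays, and these 7 probes measured 6 of the 10724 genes tested. Hspb7 did not pass, and neither did the second probe of Hspb1.

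The lines MI6 and MI7 carry a d16HER2 transgene, in which the human HER2 receptor is made without exon 16. The lines WTHER2-1 and WTHER2-2 have a WT HER2 transgene. All 4 lines are therefore labelled with a HER2 transgene, and no line without a HER2 transgene was compared. The level of HER2 on these arrays was not examined here. Each line had 4 arrays, 8 per transgene. Each transgene is represented by 2 cell lines, the labels name neither the promoter that drives it nor any treatment, and it is not stated if the 4 arrays of each line came from separate cultures, so p-values measure the spread between arrays, which may be technical.

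Small heat shock proteins hold unfolding proteins in solution without using ATP and pass them to the ATP-driven Hsp70 chaperones. Hspb8 works in a complex with Bag3, which links it to Hsp70 and steers damaged clients, among them filamins in muscle, to autophagy. Hspb1 (also known as Hsp25 in mouse) and Cryab (alpha-B crystallin) are widely expressed and stress-inducible, while Hspb2, Hspb6 and Hspb7 are best known from heart and skeletal muscle.

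The arrays were not all alike. They detected 35.8% to 42.4% of the probes, and the correlation between arrays of a line across the 20152 tested probes was 0.975 to 0.996 for MI6, 0.973 to 0.993 for MI7, 0.961 to 0.992 for WTHER2-1 and 0.870 to 0.991 for WTHER2-2. Replicates 1 and 2 of WTHER2-2 were on BeadChip 3 and replicates 3 and 4 on BeadChip 4, and these 2 pairs stood apart. The 7 measured epithelial markers of the 8 listed averaged 11.90 to 12.08 for MI6, 12.02 to 12.24 for MI7 and 10.92 to 11.37 for WTHER2-1 on the log2 scale, and in WTHER2-2 11.78 and 11.70 on BeadChip 3 but 8.54 and 6.74 on BeadChip 4. Krt8 and Krt18, keratins of simple epithelium, were detected on all 16 arrays, and Krt19 on none. The 5 measured fibroblast markers of the 8 listed averaged 5.12 to 5.44 for MI6, 5.05 to 5.19 for MI7, 5.80 to 6.67 for WTHER2-1, and in WTHER2-2 7.92 and 8.14 on BeadChip 3 and 12.16 and 11.55 on BeadChip 4. Ptprc and Cd3e of the leukocyte list were detected on no array. Of the endothelial list, Pecam1 and Cdh5 were detected on no array, while Kdr was detected on all 16 and Tek on 9. MI6 and MI7 shared BeadChips 1 and 2, WTHER2-1 was on BeadChips 5 and 6, and no BeadChip held both transgenes or both WT HER2 lines, so a difference between transgenes, or between the WT HER2 lines, cannot be told apart from one between BeadChips.

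Sequence windows were searched for Hspb8, Bag3, Hspb1, Hspb6 and Hspb7, and not for Cryab and Hspb2. Hspb8, Bag3, Hspb1 and Hspb6 each had a window around an annotated start in RefSeq (build GRCm38.p6; 250 bases before to 50 after the start) that held GAANNTTC, a pair of inverted units of the heat shock element, the site to which the heat shock factor Hsf1 binds. Each match is shown with its flanks and the motif in capitals, because it is a feature that these 4 genes share and that the choice of genes did not use. Hspb8 and Hspb1 are both on chromosome 5 and Bag3 and Hspb6 on chromosome 7.
Hspb8, chr5:116422844-116422873, minus strand: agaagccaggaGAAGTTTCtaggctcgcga
Bag3, chr7:128523614-128523632, plus strand: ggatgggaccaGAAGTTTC
Hspb1, chr5:135887791-135887820, plus strand: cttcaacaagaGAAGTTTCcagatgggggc
Hspb1, chr5:135887811-135887840, plus strand: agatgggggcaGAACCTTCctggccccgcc
Hspb6, chr7:30553170-30553199, plus strand: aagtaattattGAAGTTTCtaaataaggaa

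Counted from the annotated start as position 1, the match lay at positions 3 to 10 in Hspb8 and at 43 to 50 in Bag3, just inside the transcript, where the end of the window cut the flank of the Bag3 match. The matches of Hspb1 lay upstream, at -117 to -110 and -97 to -90, and that of Hspb6 at -120 to -113 in the second of its 2 windows. The first Hspb6 window and the Hspb7 window held no match. GAANNTTC reads the same on both strands and stood in 7.86% of the 32851 RefSeq windows of this length, or in 9.04% of 27025 genes. The same 8 letters, GAAGTTTC, filled 1 match in each of the 4 genes, on the strand of the gene. Searched on both strands after this was seen, they stood in 1.21% of the windows and 1.35% of the genes. The other pair of units, TTCNNGAA, which shares 3 of its letters with GAANNTTC where they overlap, was in no window of these genes and in 8.52% of all windows. The 3-unit forms GAANNTTCNNGAA and TTCNNGAANNTTC, which are each other's reverse complement and contain both pairs, were also in none, against 0.603% of all windows. These matches describe letters in a window and show no binding.

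The 250 bases upstream of the Hspb1 start are given whole, since both Hspb1 matches, in capitals, lie in them, 20 bases apart.
Hspb1, chr5:135887669-135887918, plus strand: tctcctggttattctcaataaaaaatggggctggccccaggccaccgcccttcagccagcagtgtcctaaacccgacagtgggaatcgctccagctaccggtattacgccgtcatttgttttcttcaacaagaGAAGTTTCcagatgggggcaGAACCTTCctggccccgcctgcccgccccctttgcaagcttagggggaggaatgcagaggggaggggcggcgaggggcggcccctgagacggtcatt

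Hspb8 was low in both d16HER2 lines and high in both WT HER2 lines. Its brighter probe, ILMN_2761205, had background-corrected, quantile-normalized log2 intensities of 6.45, 6.58, 6.60 and 6.63 for MI6 and of 5.95, 5.88, 6.13 and 5.90 for MI7. In WTHER2-1 the values were 12.36, 12.11, 12.64 and 12.25, and in WTHER2-2 9.56, 9.95, 13.82 and 14.30. All 8 d16HER2 arrays lay below all 8 WT HER2 arrays, and the 2 highest and 2 lowest WT HER2 values came from the same line, WTHER2-2, on different BeadChips. The line means were 6.57 ± 0.08 for MI6, 5.97 ± 0.12 for MI7, 12.34 ± 0.22 for WTHER2-1 and 11.91 ± 2.50 for WTHER2-2 (SD, n = 4 arrays each). The mean of the d16HER2 lines was 6.27 against 12.13 for the WT HER2 lines, a log2 difference of -5.86 or 58.1-fold. The 4 pairs of lines ranged from -6.37 to -5.35. The size was smaller without background correction, at -4.87, and in the authors' normalized table, at -4.86. The d16HER2 values lay near the floor, as on MI7 replicate 2, where the lowest signal above background was 5.73. Before any normalization the deposited intensities were 118 to 186 in the d16HER2 lines, against 712 to 14660 in the WT HER2 lines. No test is given for this difference, since it chose the gene. In bulk RNA, fewer cells that express a gene and less RNA per cell cannot be told apart.

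The second Hspb8 probe, ILMN_2944366, was above background on 0 of 8 d16HER2 arrays and on 8 of 8 WT HER2 arrays. Its line means were 4.97 ± 0.20 for MI6, 4.76 ± 0.06 for MI7, 9.72 ± 0.28 for WTHER2-1 and 9.29 ± 2.81 for WTHER2-2, and in WTHER2-2 it read 7.04 and 6.69 on BeadChip 3 and 11.39 and 12.03 on BeadChip 4. Both probes thus placed the d16HER2 lines below the WT HER2 lines and gave the same split of WTHER2-2. The order of MI6 and MI7 cannot be read from the second probe, whose values overlapped there and were not above background. Since the d16HER2 level was below background, the fold is a bound. The mean of the WT HER2 lines was set against the lowest signal among probes above background on each d16HER2 array, by which d16HER2 cells had at least 14.7-fold lower levels.

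Without the WTHER2-2 arrays of BeadChip 4, the d16HER2 minus WT HER2 difference of Hspb8 was -4.79, and without those of BeadChip 3 it was -6.95. The arrays with the highest Hspb8, those of BeadChip 4, were also those with the lowest epithelial and the highest fibroblast marker levels given above. On BeadChip 3, where WTHER2-2 had epithelial levels of 11.78 and 11.70, Hspb8 averaged 9.76, above every d16HER2 array. The part of these markers in the Hspb8 values was not tested.

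Among the d16HER2 lines, all 4 MI6 values of Hspb8 lay above all 4 MI7 values. In the limma fit of all 4 lines the difference of 0.60 ± 0.79 (SE) had a 95% confidence interval of -1.08 to 2.28 and an adjusted p of 0.993 (Benjamini-Hochberg over all 20152 probes). That fit shares 1 estimate of spread with the widely scattered WTHER2-2. Fitted to the MI6 and MI7 arrays alone, an alternative chosen after seeing the data, the same difference had an SE of 0.13 and an adjusted p of 0.0426, a 1.52-fold difference and so below the 2-fold asked of a call.

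Between the WT HER2 lines, Hspb8 differed by 0.43 ± 0.79 (WTHER2-1 minus WTHER2-2, limma SE), with an interval of -1.25 to 2.11 and an adjusted p of 0.706. This mean joins 2 unlike pairs of arrays. Without the arrays of BeadChip 4, WTHER2-1 was higher by 2.57 (limma adjusted p = 1.09e-07). Without those of BeadChip 3, WTHER2-1 was lower, at -1.73 (limma adjusted p = 5.05e-06). The 4 arrays of WTHER2-1 lay between the pairs and overlapped with neither.

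**Figure D1:**
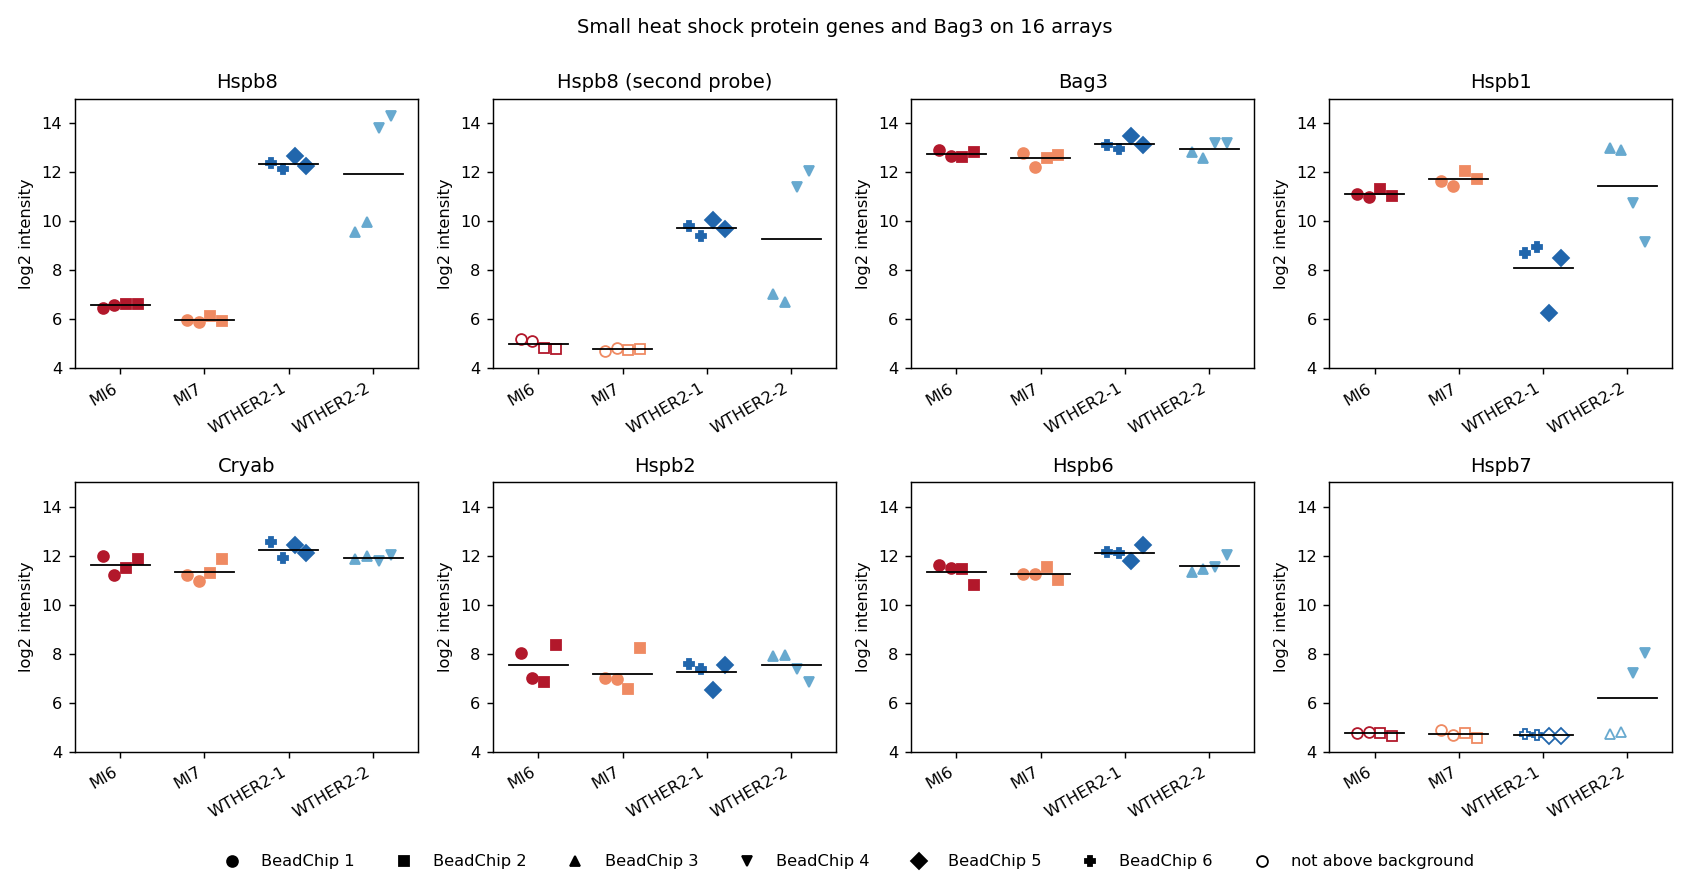
Log2 intensity (y axis) of the probes of the 7 genes on each array, by cell line (x axis), with the d16HER2 lines MI6 and MI7 in red tones and the WT HER2 lines in blue. Symbols mark the BeadChip, open symbols arrays not above background, and bars the line means. The brighter Hspb8 probe is below 6.7 on every d16HER2 array and above 9.5 on every WT HER2 array. Its second probe reads as low as 6.69 in WTHER2-2, and the undetected second probe of Hspb1 is left out.

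The plot of log2 intensity by array shows Hspb8 as the gene with the widest gap between transgenes, and Hspb8 and Hspb1 as the genes with the widest scatter within a line. The pooled SD within lines was 1.26 for Hspb8 and 1.12 for Hspb1, against 0.24 for Bag3, 0.29 for Hspb6, 0.30 for Cryab and 0.63 for Hspb2. Of the 6 measured genes, 1, Hspb8, was lower in d16HER2 by 2-fold or more in all 4 line pairs, where 3.27% of all genes were. It was also the 1 gene of 6 whose d16HER2 arrays all lay below all WT HER2 arrays, where 4.73% of all genes did. Since the genes were chosen on this contrast, nothing is read from these counts. The median d16HER2 minus WT HER2 difference of the 6 genes was -0.48, beside 0.03 over all 10724 genes.

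Bag3, the partner that binds Hspb8 through its IPV motifs and Hsp70 through its BAG domain, was above background on all 16 arrays. It read 12.89, 12.67, 12.62 and 12.83 for MI6 and 12.77, 12.20, 12.60 and 12.69 for MI7. WTHER2-1 read 13.13, 12.94, 13.49 and 13.11, and WTHER2-2 12.83, 12.59, 13.21 and 13.20. The d16HER2 lines tended to the lower values, but the arrays of the transgenes overlapped. The mean difference was -0.40, with all 4 line pairs lower in d16HER2 (-0.60 to -0.21). Thus Bag3 differed by 1.32-fold between the lines in which Hspb8 differed by 58.1-fold, a size that depended on the background correction. Within a transgene no difference passed the test, with 0.19 ± 0.16 between MI6 and MI7 (limma adjusted p = 0.918) and 0.21 ± 0.16 between WTHER2-1 and WTHER2-2 (limma adjusted p = 0.351). The difference between the WT HER2 lines was -0.04 when the arrays of BeadChip 3 were left out.

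Hspb1 did not follow Hspb8. It read 11.10, 10.97, 11.31 and 11.04 for MI6 and 11.62, 11.45, 12.05 and 11.71 for MI7. In WTHER2-1 it read 8.69, 8.93, 6.25 and 8.48, and in WTHER2-2 12.97, 12.91, 10.73 and 9.15. WTHER2-1 was the line apart, with all 4 of its arrays below the 12 others. The line means were 11.11 ± 0.15 for MI6, 11.71 ± 0.25 for MI7, 8.09 ± 1.24 for WTHER2-1 and 11.44 ± 1.85 for WTHER2-2 (SD, n = 4 arrays each). In order from the highest they ran MI7, WTHER2-2, MI6 and WTHER2-1, and only the last step was free of overlap between neighbouring lines.

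Hspb1 was 10.2-fold lower in WTHER2-1 than in WTHER2-2. The log2 difference was -3.35 ± 0.70 (SE), with a 95% confidence interval of -4.85 to -1.86 and an adjusted p of 0.00216 in limma's test with Benjamini-Hochberg adjustment, lower in 4 of 4 WTHER2-1 arrays. It was the 1 call among the 6 measured genes (an adjusted p under 0.05 and at least 2-fold), in a comparison that called 7.7% of all genes lower in WTHER2-1. At an unadjusted p under 0.05, 2 of the 6 genes passed, Hspb1 and Hspb6, where 44.7% of all genes did. The size depended on the BeadChip. It was -4.84 without the arrays of BeadChip 4 (limma adjusted p = 5.64e-06) and -1.86 without those of BeadChip 3 (limma adjusted p = 0.0182). It was -2.74 without WTHER2-1 replicate 3 and -4.11 without WTHER2-2 replicate 4, with the call kept each time. The keratin Krt14 differed between the same lines, at 13.87 ± 0.47 for WTHER2-1 and 8.17 ± 2.80 for WTHER2-2 (limma adjusted p = 0.00021). Of the 9 listed myoepithelial and smooth muscle markers 4 were measured, and 3, Krt14, Mylk and Trp63, were called higher in WTHER2-1. Acta2 was lower there, at -0.62, without a call, and Krt5, Myh11, Cnn1 and Tagln were detected on no array. Of the 5 measured fibroblast markers 4 were called lower in WTHER2-1. Col1a1, Pdgfrb and Dcn among them passed the detection filter only with their WTHER2-2 arrays, and Trp63 only with its WTHER2-1 arrays. These marker counts are therefore a description. The part of these markers in the Hspb1 difference was not tested.

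Between MI6 and MI7, Hspb1 differed by -0.60 ± 0.70 (limma SE; interval -2.10 to 0.89, adjusted p = 0.975), although the arrays of the lines did not overlap. In the fit of these lines alone the adjusted p was 0.0575. None of the 6 genes was called between MI6 and MI7, where 1.15% of all genes were called in either direction. In limma's fit of all 4 lines, 0 passed an unadjusted p under 0.05, where 9.19% of all genes did. The spread of Hspb8 and Hspb1 in that fit includes the widely scattered WT HER2 arrays. In limma's fit of MI6 and MI7 alone, chosen after seeing the data, Hspb8 and Hspb1 passed that limit and the other genes did not. Their SEs there were 0.13 and 0.14, and neither was called. The count of 0 therefore does not show that these genes varied less than others between MI6 and MI7. Across the transgenes, Hspb1 was higher in d16HER2 in 3 of the 4 line pairs and lower in 1, by a mean of 1.64 with a range of -0.33 to 3.62. The second Hspb1 probe, ILMN_2515964, was above background on 0 of 16 arrays, so the Hspb1 values rest on 1 probe.

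**Figure D2:**
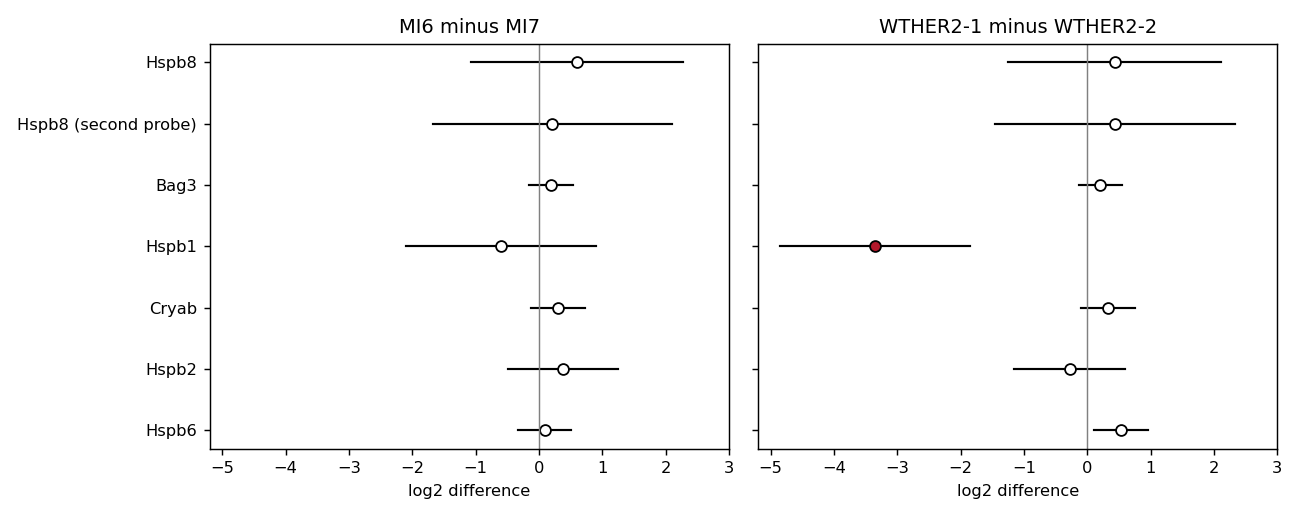
Log2 difference (x axis) of each gene between lines of the same transgene, MI6 minus MI7 on the left and WTHER2-1 minus WTHER2-2 on the right, with 95% confidence intervals from limma as bars. The filled point marks the 1 call, Hspb1 at -3.35, while every interval on the left spans 0.

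The plot of differences within a transgene shows how much narrower the intervals of Bag3, Cryab and Hspb6 were than those of Hspb8 and Hspb1. For Bag3 the interval between MI6 and MI7 was -0.16 to 0.53, so a difference as large as 2-fold lies outside it. For Hspb8 the interval of -1.08 to 2.28 leaves differences beyond 2-fold within it in both directions. That width rests on the spread shared with WTHER2-2, and in the fit of MI6 and MI7 alone the SE was 0.13. The median difference of the 6 genes was 0.24 between MI6 and MI7, beside 0.00 over all genes, and 0.27 between WTHER2-1 and WTHER2-2, beside 0.02.

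Within WTHER2-2, Hspb1 was lower on the arrays where Hspb8 was higher. On BeadChip 4 WTHER2-2 averaged 14.06 for Hspb8 and 9.94 for Hspb1, and on BeadChip 3 9.76 and 12.94 for the same genes. In WTHER2-1, replicate 3 had the highest Hspb8 of its line, 12.64, and the lowest Hspb1, 6.25, a value flagged below as far from the rest. Replicate 1 of that line was above replicate 4 in both genes, at 12.36 and 12.25 for Hspb8 and 8.69 and 8.48 for Hspb1. Between the lines the relation did not hold. WTHER2-1 averaged 12.34 for Hspb8 and 8.09 for Hspb1, both below the WTHER2-2 means on BeadChip 4. The d16HER2 lines joined low Hspb8 with an Hspb1 level inside the WTHER2-2 range. Bag3 also averaged more on BeadChip 4 than on BeadChip 3, at 13.21 and 12.71, but Cryab did not, at 11.90 and 11.95. These are values of a few arrays, and no test was made of the relation.

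**Figure D3:**
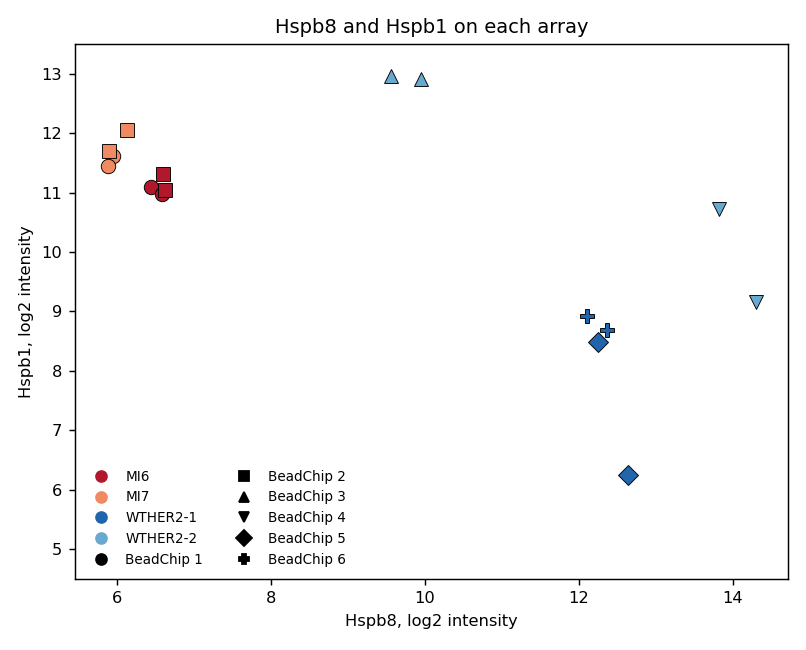
Log2 intensity of Hspb8 (x axis) and Hspb1 (y axis) on each of the 16 arrays, with colour for the line and symbol for the BeadChip. The 8 d16HER2 arrays form a tight group at the left between 10.97 and 12.05 for Hspb1, while the WT HER2 arrays spread from high Hspb1 on BeadChip 3 to 6.25 on BeadChip 5.

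The plot of Hspb8 against Hspb1 separates 4 sets of arrays: the d16HER2 lines together, WTHER2-2 on BeadChip 3, WTHER2-2 on BeadChip 4, and WTHER2-1. A pooled correlation over such clusters would not describe any line, and none is given.

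Cryab, alpha-B crystallin, which forms large mixed oligomers with Hspb1, was above background on all 16 arrays. Its values were 11.98, 11.23, 11.52 and 11.85 for MI6 and 11.23, 10.98, 11.30 and 11.88 for MI7, against 12.56, 11.91, 12.44 and 12.12 for WTHER2-1 and 11.89, 12.01, 11.77 and 12.03 for WTHER2-2. The arrays of the transgenes overlapped, with a mean difference of -0.59 and all 4 line pairs lower in d16HER2 (-0.91 to -0.28). MI6 minus MI7 was 0.30 ± 0.20 (limma adjusted p = 0.822) and WTHER2-1 minus WTHER2-2 was 0.33 ± 0.20 (limma adjusted p = 0.219).

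Hspb6, known as Hsp20, a substrate of cyclic-nucleotide-dependent kinases in muscle, had the same order of lines as Cryab and Bag3. It read 11.61, 11.50, 11.48 and 10.81 for MI6 and 11.25, 11.26, 11.53 and 11.00 for MI7, against 12.17, 12.10, 11.78 and 12.44 for WTHER2-1 and 11.35, 11.45, 11.53 and 12.03 for WTHER2-2. All 4 line pairs were lower in d16HER2 (-0.86 to -0.24, mean -0.55), and the arrays overlapped with those of WTHER2-2. WTHER2-1 exceeded WTHER2-2 by 0.53 ± 0.20 (limma SE), with an interval of 0.11 to 0.95 and an adjusted p of 0.0519. With median scaling in place of quantile normalization the difference was 0.75 and the limma adjusted p 0.00427, but that scaling moved the median of all genes to 0.23 for the same lines. Hspb6 differed by 0.09 ± 0.20 between MI6 and MI7 (limma adjusted p = 1.00).

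For Bag3, Cryab and Hspb6 alike, the line means ran in the order WTHER2-1, WTHER2-2, MI6 and MI7 from the highest, and neighbouring lines in that order overlapped. Hspb8 had the same order, with overlap between the WT HER2 lines only. Hspb8, Bag3, Cryab and Hspb6 thus shared an order of lines, which in the last 3 rests on differences of less than 2-fold in each line pair. Without the WTHER2-2 arrays of BeadChip 3, WTHER2-1 minus WTHER2-2 was -1.73 for Hspb8 and -0.04 for Bag3. For Cryab it was 0.36 and for Hspb6 0.34. The genes were chosen on the contrast of transgenes, and the share of all genes with this order was not counted, so nothing is read from it.

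Hspb2, which pairs with the small heat shock protein Hspb3 in muscle, was dim but above background on all 16 arrays, with deposited intensities of 129.9 to 399.5. Its arrays ran from 6.55 to 8.37 in the d16HER2 lines and from 6.51 to 7.96 in the WT HER2 lines, so the transgenes overlapped almost throughout. The mean difference of -0.02 changed sign to 0.07 with median scaling. Cryab and Hspb2 are neighbours on chromosome 9 and overlap in the RefSeq annotation, and the sequences of the array's probes were not used here, so a shared reading was not checked. Between MI6 and MI7 Hspb2 differed by 0.38 ± 0.41 (limma adjusted p = 0.964), and between WTHER2-1 and WTHER2-2 by -0.28 ± 0.41 (limma adjusted p = 0.636).

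Hspb7, a small heat shock protein of heart and skeletal muscle, was above background on 2 of 16 arrays only. These were WTHER2-2 replicates 3 and 4 on BeadChip 4, which read 7.22 and 8.02, while replicates 1 and 2 of the line read 4.70 and 4.80. The other 12 arrays lay between 4.57 and 4.89, not above background. Of the 8 striated muscle markers, 3 were measured, Mb (myoglobin) with detection on 16 arrays, Des (desmin) on 15 and Myog (myogenin) on 8. Their mean level was 6.69 and 5.91 on BeadChip 4 of WTHER2-2, against 6.77 and 6.90 on BeadChip 3. Mb averaged 7.37 on BeadChip 4 and 9.46 on BeadChip 3, and so was lower where Hspb7 was detected. Des, at 6.09 and 5.94, and Myog, at 5.45 and 5.11 on the same chips, were slightly higher there. Acta1, skeletal muscle actin, was detected on 2 WTHER2-2 arrays and no others, and Actc1, Ckm and Myl1 on none. The arrays with Hspb7 were those with the highest Hspb8 and the highest fibroblast marker levels, and the part of those markers was not tested.

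Among the partners of Hspb8 and Bag3 in chaperone-assisted selective autophagy, Flnc had the widest gap in level between the transgenes. It encodes filamin C, the actin crosslinker that this route clears in muscle. Flnc was above background on 0 of 8 d16HER2 arrays and on 8 of 8 WT HER2 arrays. Its means were 4.72 ± 0.04 for MI6, 4.94 ± 0.11 for MI7, 7.90 ± 0.85 for WTHER2-1 and 9.88 ± 2.21 for WTHER2-2 (SD, n = 4 arrays each). As with Hspb8, the WTHER2-2 arrays of BeadChip 4 were higher than those of BeadChip 3, at 11.79 and 7.98. In d16HER2 cells the levels were at least 9.6-fold lower, a bound set by the lowest signal above background there. Of the 13 measured genes of that list, Flnc was the 1 gene separated between the transgenes in limma's fit, meaning that all 4 line pairs had 1 direction, an adjusted p under 0.05 and at least 2-fold. Of all genes, 2.46% were separated as lower in d16HER2 and 3.06% as higher. Flnc passed the detection filter through its WT HER2 arrays alone, so the count is a description and no p is given for it. Without background correction Flnc was no longer separated.

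The other 12 measured genes of the list, among them the Hsc70 gene Hspa8, the ubiquitin ligase gene Stub1 and the autophagy receptor gene Sqstm1, were not separated, and its median difference was 0.05, beside 0.03 over all genes. Gabarapl1, an Atg8-family gene of the autophagosome membrane named here after its values were seen, had 10.69 ± 0.22 for MI6 and 10.66 ± 0.16 for MI7, against 11.60 ± 0.33 for WTHER2-1 and 12.15 ± 0.48 for WTHER2-2. Its mean difference was -1.20, and it was under 2-fold against WTHER2-1. Synpo, the actin-binding synaptopodin, was 12.69 ± 0.26 for MI6 and 12.78 ± 0.28 for MI7, and 11.30 ± 0.44 for WTHER2-1 against 12.73 ± 0.43 for WTHER2-2, a call between the WT HER2 lines at -1.42 ± 0.23 (limma adjusted p = 0.000323). Hspb1 and Synpo were therefore both lower in WTHER2-1 than in WTHER2-2.

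No other chaperone list held a separated gene. The 5 measured BAG co-chaperone genes other than Bag3 had a median difference of 0.10, and the largest were Bag1 at -0.27 and Bag5 at -0.26. Of the 19 genes of the heat shock factor list, 15 were measured, with 4 higher and 11 lower in mean and no separated gene. Of all 10724 genes, 5614 were higher and 5110 lower in mean. The median of the list was -0.38, beside 0.03 over all genes. Hspa2, an Hsp70 gene, had a difference of 1.12, with 12.07 ± 0.20 for MI6 and 11.95 ± 0.31 for MI7, against 11.01 ± 0.44 for WTHER2-1 and 10.77 ± 0.38 for WTHER2-2. Hspa4l, an Hsp110-family gene, was above background on 0 of 4 arrays of MI6, 2 of MI7, 1 of WTHER2-1 and 4 of WTHER2-2. It was called lower in WTHER2-1 than in WTHER2-2, with means of 5.50 ± 0.12 and 7.45 ± 0.89. However, 3 of the 4 WTHER2-1 arrays were not above background, so the size of the Hspa4l difference is not settled. Hspa4l passed the detection filter only with its WTHER2-2 arrays, so its call is a description and no p is given for it. Hspa1a, the inducible Hsp70 gene named here after its values were seen, averaged 6.60 on BeadChip 4 and 11.23 on BeadChip 3 for WTHER2-2, the same direction as Hspb1 and opposite to Hspb8.

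Of the 9 measured chaperones of the endoplasmic reticulum and mitochondria, 8 had higher and 1 lower means in d16HER2, beside 5614 higher and 5110 lower of all genes. Their median was 0.34, beside 0.03 over all genes, with no separated gene. Dnajc3 at 1.06 and Calr at 0.75 were the largest. Over all 5 lists, which hold 55 genes of which 42 were measured, 0 genes were separated as higher and 1 as lower, and the median difference was 0.03, the same as over all genes. Between MI6 and MI7, limma's fit of all 4 lines called 0 of the 42, beside 1.15% of all genes. In that fit 2 passed an unadjusted p under 0.05, beside 9.19%. Between the WT HER2 lines 0 of the 42 were called higher, beside 8.17% of all genes, and 2 lower, beside 7.7%. Of these 2, Hspa4l passed the filter only with its WTHER2-2 arrays. The 5 further small heat shock protein genes listed, Hspb3, Hspb9, Hspb11, Cryaa and Odf1, had no probe that passed the filter.

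**Figure D4:**
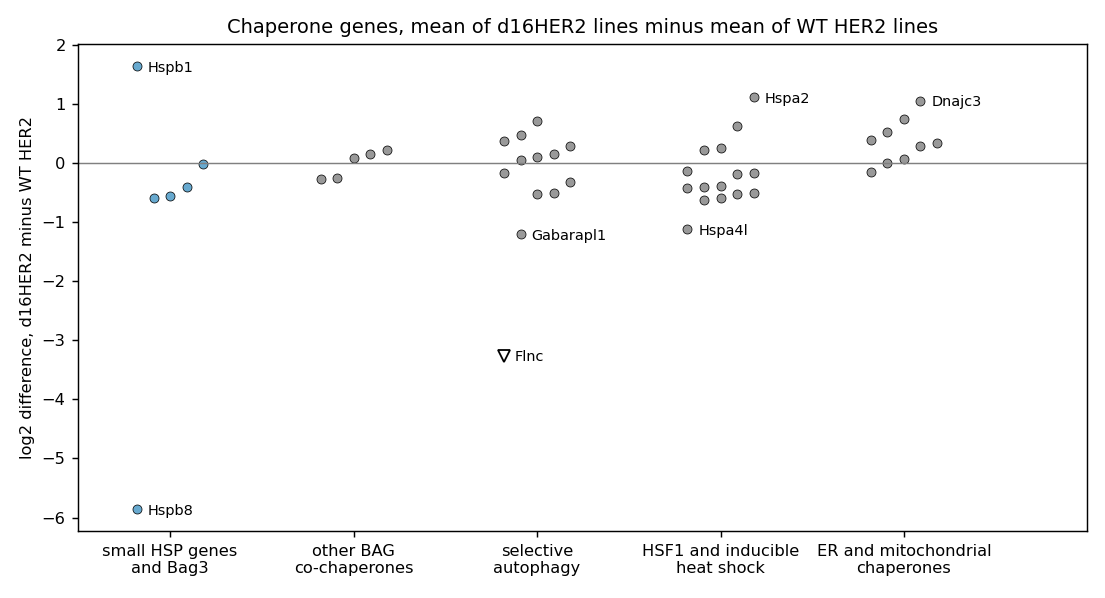
Log2 difference of d16HER2 minus WT HER2 line means (y axis) for each measured gene, by list (x axis), with the genes chosen on this contrast in blue and all others in grey. The open triangle sets Flnc, not above background on any d16HER2 array, at its bound of -3.26, and Hspa4l was above background on 7 of 16 arrays; Hspb8 lies at -5.86 and the other genes between -1.20 and 1.64.

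The plot of chaperone genes sets the size of the Hspb8 difference among 48 measured genes of its family and pathway. Outside Hspb8 and Flnc, Hspb1 had the largest difference of either sign.

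The genes whose pattern over the 16 arrays was most like that of Hspb8 were named by Pearson's r on log2 values. The 8 highest were Ccnd2 (0.99), Leprot, Zfp985, Rgl1, Rgs10, Cpne2, Sod3 and Col5a1, the last 7 all at 0.97. The arrays of a line share their cells and BeadChips, so r is given as a description with no p. After line means were removed, r was 0.96 for Ccnd2, 0.94 for Rgl1, 0.92 for Cpne2 and 0.83 to 0.90 for the other 5. These values still hold the split of WTHER2-2, where the SD of Hspb8 was 2.50, the largest of the 4 lines. Ccnd2, which encodes the G1 cyclin D2, was above background on 0 of 8 d16HER2 arrays and 8 of 8 WT HER2 arrays. It averaged 4.76 for both MI6 and MI7, against 9.42 for WTHER2-1, and in WTHER2-2 8.02 on BeadChip 3 and 11.73 on BeadChip 4.

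Rgl1, an exchange factor of the small GTPase Ral, averaged 6.49 for MI6 and 5.75 for MI7, against 11.72 for WTHER2-1, and in WTHER2-2 8.06 on BeadChip 3 and 11.90 on BeadChip 4. Col5a1, a fibrillar collagen chain made by fibroblasts, averaged 5.52 for MI6 and 5.07 for MI7, against 10.01 for WTHER2-1 and 8.41 and 12.66 on BeadChips 3 and 4 of WTHER2-2. Sod3, the extracellular superoxide dismutase, was above background on no d16HER2 array and on all 8 WT HER2 arrays. Leprot had the same shape on a much smaller scale, with 11.86 for MI6 and 11.83 for MI7, against 12.77 for WTHER2-1, and 12.30 and 12.83 on BeadChips 3 and 4 of WTHER2-2.

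The 4 genes with the lowest r were Cd55 at -0.99, and Papln, Ly6g6d and Gna14 at -0.98. Cd55, a membrane inhibitor of complement, averaged 9.55 for MI6 and 9.81 for MI7, against 5.34 for WTHER2-1 and 6.86 and 4.83 on BeadChips 3 and 4 of WTHER2-2. Ly6g6d, a GPI-anchored Ly6-family gene, kept an r of -0.98 after line means were removed. Papln, which encodes the matrix protein papilin, averaged 12.79 for MI6 and 12.54 for MI7, against 7.87 for WTHER2-1 and 9.37 and 7.12 on BeadChips 3 and 4 of WTHER2-2. In Cd55, Papln, Ly6g6d and Gna14 alike, the arrays of BeadChip 3 lay between the d16HER2 lines and WTHER2-1.

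**Figure D5:**
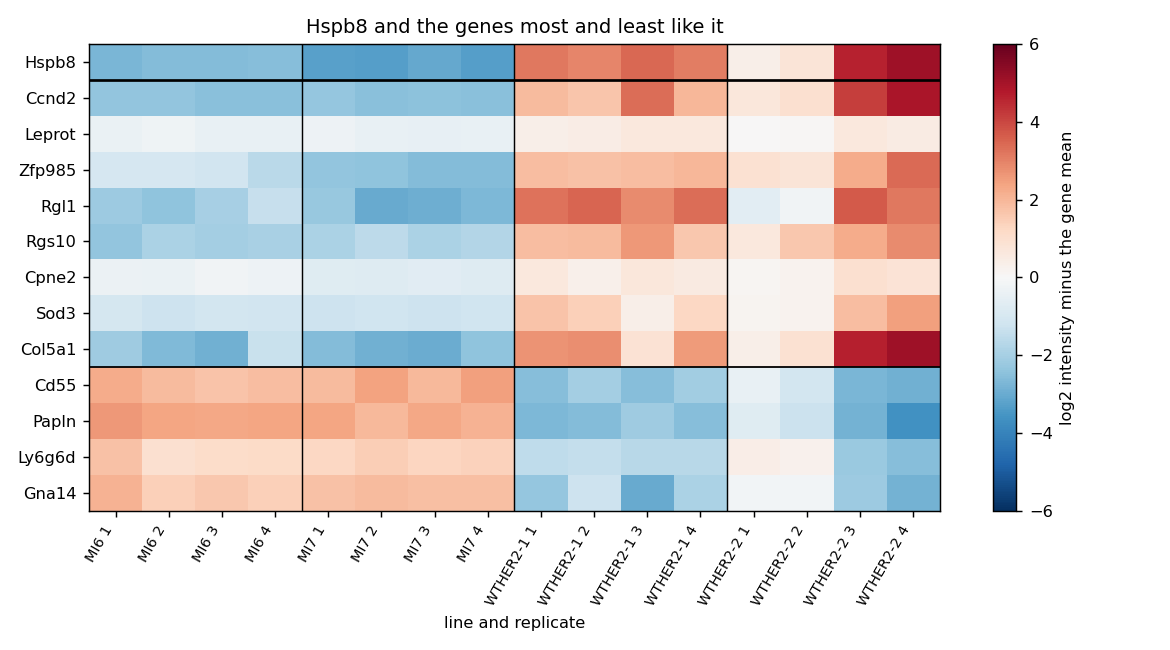
Log2 intensity minus the gene's mean over the 16 arrays (colour scale) for Hspb8 in the top row, the 8 genes most like it and the 4 least like it, with a column for each line and replicate. Within WTHER2-2, replicates 3 and 4 differ from replicates 1 and 2 in every row, where the genes were picked by r with Hspb8 over these arrays.

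The heat map of Hspb8 and its most and least similar genes shows the split of WTHER2-2 by BeadChip in genes of each kind. These genes were picked by r with Hspb8 over the same arrays, so the shared split follows from that choice and is no separate result. For the other small heat shock protein genes and Bag3, the most similar gene was a different one each time. It was Ppargc1b for Bag3 (r = 0.95), Ccdc68 for Hspb1 (0.96), Cnot4 for Cryab (0.90), Asah2 for Hspb2 (0.87) and Gpbp1l1 for Hspb6 (0.91), each over 16 arrays. Ccdc68 averaged 10.07 for MI6 and 11.26 for MI7, against 6.79 for WTHER2-1, and in WTHER2-2 11.88 on BeadChip 3 and 8.15 on BeadChip 4, which is the Hspb1 pattern. Ppargc1b, a transcriptional coactivator of mitochondrial genes, averaged 6.73 for MI6 and 6.32 for MI7, against 7.84 for WTHER2-1 and 6.57 and 8.15 on BeadChips 3 and 4 of WTHER2-2.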

How the data were processed

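Messenger RNA was measured on Illumina mouse BeadChips. Per the file headers, the authors deposited an average intensity per probe with its detection p-value, not normalized, and the submitters' processing notes name BeadStudio. A deposited table of linear intensity, on which all arrays share 1 distribution, served as an alternative. Raw intensities were background-corrected with limma's normexp model from the detection p-values (offset 16), quantile-normalized and put on the log2 scale (R 4.3.3, limma 3.58.1). Probe symbols came from the platform annotation. For each gene the brightest of its probes past the filter was used. One limma fit of the 4 lines, with an intensity trend, was made over 20152 probes, with Benjamini-Hochberg adjustment over all of them. It was checked on simulated data. The simulated arrays held no BeadChip differences, so that check does not cover the split of WTHER2-2. Alternatives changed background, scaling, filter, probe rule, BeadChip block and arrays left out. All 7 genes were named with every probe, with list genes named if separated or called, or else the 2 largest. The genes and lists were chosen with earlier results of these data known. The precision is limited by the number of arrays.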

Additional observations from a re-analysis of the deposited data

Results flagged for a closer look

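Of 28 sets of 4 arrays (7 probes in 4 lines), 2 held an array far from the other 3 by Dixon's criterion, and chance alone flags about 1 in 20. Hspb1 on WTHER2-1 replicate 3 read 6.25, where the nearest array of the line read 8.48. Hspb6 on MI6 replicate 4 read 10.81, where the nearest read 11.48.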

How the results depend on the processing

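The d16HER2 minus WT HER2 difference of Hspb8 kept its sign in all 25 alternatives, between -6.95 and -4.79, and no small heat shock protein gene or Bag3 was called between MI6 and MI7 in any of 30. Hspb1 stayed called between the WT HER2 lines in all 30, between -4.85 and -1.85, with limma adjusted p from 5.64e-06 to 0.0333. Without the WTHER2-2 arrays of BeadChip 4, or without those of BeadChip 3, 2 genes (Hspb1 and Hspb8) were called between the WT HER2 lines, with Hspb8 at 2.57 and -1.73. WTHER2-1 against each pair in a fit of line by BeadChip, chosen after seeing the data, also called 2, with Hspb8 at 2.58 and -1.72. Without BeadChip 3, 2 genes (Hspb8, and Hspb1 in the opposite direction) were 2-fold apart in all 4 line pairs. Separated chaperone genes numbered 0 without background correction and 0 in the authors' deposited table, where Flnc missed the threshold, and from 1 to 2 when single arrays were left out. Hspa2 joined Flnc without MI7 replicate 2 or 3 or WTHER2-1 replicate 2 or 4, and Gabarapl1 without WTHER2-1 replicate 3. The cause of these changes was not tested. The labels pair no array of a line with an array of another line, so no paired analysis was made. Equal replicate numbers in different lines mark no pair here. With the BeadChips that MI6 and MI7 share as a block, and within each of these chips, 0 of the small heat shock protein genes and Bag3 were called between them. Hspb7, the second probe of Hspb8 in d16HER2 and Flnc in d16HER2 were not above background, so their levels there have only an upper bound.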
